A study of Rattus norvegicus with 17 samples.

Results

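The comparison described here is that of the right with the left hippocampus, the paired forebrain structure needed for spatial and episodic memory. Of the 17 hippocampal samples, 4 are labelled right and 13 left, and members were assigned by that label alone. All samples came from Long-Evans rats of 36 to 38 days of age. The dams of the ethanol group (ET) received a liquid diet with 6.7% ethanol from gestational day 0 to day 20, those of the pair-fed group (PF) an ethanol-free liquid diet in matched amounts, and those of the ad libitum group (AD) standard chow. The right samples were 1 of 5 ET rats (replicate 2, male), 2 of 6 PF rats (replicate 1, female, and replicate 6, male) and 1 of 6 AD rats (replicate 3, male). The left samples were labelled 2 female and 2 male in ET, the same in PF, and 3 female and 2 male in AD. Each diet group was 1 litter, so diet and litter cannot be told apart. The study took left tissue wherever it could, hemisphere was not assigned by design, and by the animal names no rat gave both sides.

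The rodent hippocampus is a classic setting for the study of molecular left-right differences. The synapses that CA3 pyramidal cells make on each other and on CA1 differ between the hemispheres in mice in their content of the NMDA receptor subunit GluN2B, encoded by Grin2b, and this asymmetry depends on the MHC class I pathway and on the genes that set the body's left-right axis in the embryo. Such differences are described for synaptic protein within defined layers. Here, whole hippocampal tissue was measured as messenger RNA, in which fewer cells of a type and less RNA per cell cannot be told apart.

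Between 10853947 and 14094113 fragments were counted in the right samples and between 11392019 and 17498392 in the left samples. The ET right sample had the lowest total of all, and it was 1 of 3 samples rich in choroid plexus transcripts, the others being the left samples of PF animal 11f6 and AD replicate 4. The comparison was therefore made in all 17 samples and again in the 14 without these 3, where 3 right samples (2 PF and 1 AD) remained against 11 left ones. In the smaller set no ET sample was a right hippocampus, and the ET samples inform only the spread. The Y-linked genes Uty, Eif2s3y, Ddx3 and Kdm5d matched the sex label in all 4 right samples, with Uty at 242 normalized counts in ET replicate 2, 0 in PF replicate 1, 237 in PF replicate 6 and 245 in AD replicate 3. They did not match it in the left samples AD replicate 1 and AD replicate 2.

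No gene passed the test for a difference between right and left. In all 17 samples, 16401 genes passed the filter on low counts and were tested with diet as a covariate. At an adjusted p-value below 0.01 and a log2 fold change beyond 1.5 in either direction, 0 were higher and 0 lower in right (0.0% called). The count was also 0 at an adjusted p-value below 0.05 with no limit on the fold change (0.0%), and the smallest adjusted p-value from edgeR's quasi-likelihood test was 0.99. Before adjustment, 495 genes were higher (3.02%) and 309 lower (1.88%) in right at p below 0.05 in that test. DESeq2 called 0 genes at the first threshold and 2 at an adjusted p-value below 0.05, Atp5mk and Laptm4a, both higher in right. In the 14 samples, edgeR tested 16439 genes, called 0 at either threshold (0.0% each), and gave 175 genes higher (1.06%) and 118 lower (0.718%) at an unadjusted p-value below 0.05. DESeq2 called 0 genes in the 14 samples at either threshold, and before adjustment it gave 104 higher and 71 lower at p below 0.05. In the same 17-sample fit, the term for PF against AD called 357 genes (2.18%) at the first threshold, 352 of them higher in PF.

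**Figure D1:**
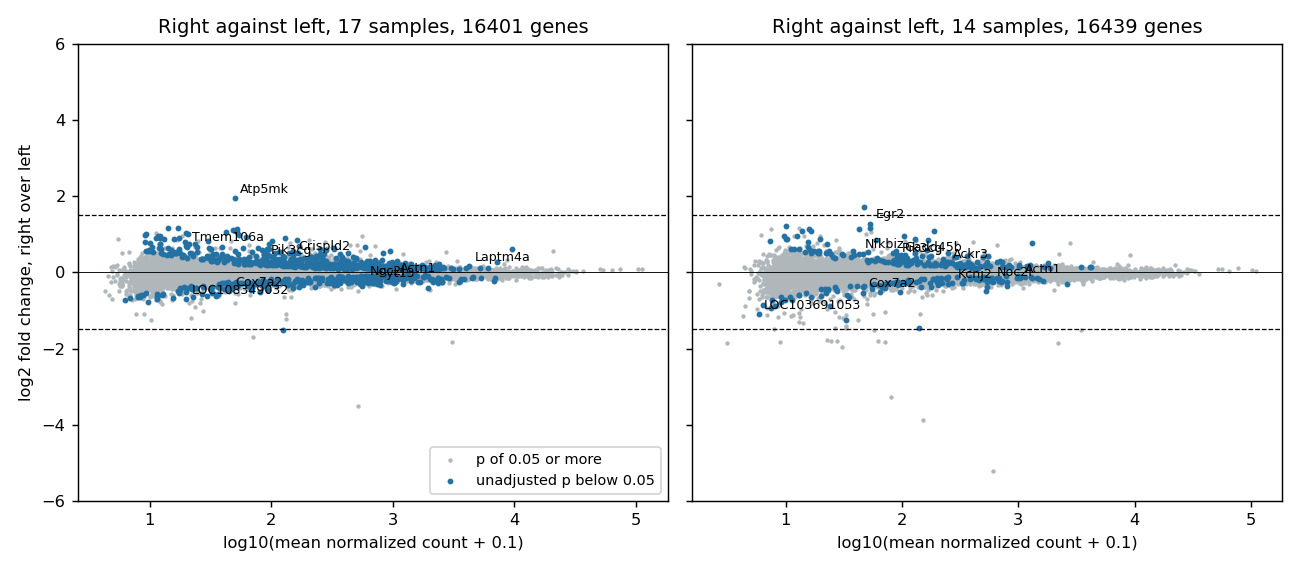
Log2 fold change of right over left (vertical axis) against the log10 mean normalized count (horizontal axis) for 16401 genes in 17 samples and 16439 genes in 14 samples, where each point is a gene, blue points have an unadjusted p-value below 0.05 and dashed lines mark a log2 fold change of 1.5 in either direction. Most genes lie close to 0 at all levels, and the labelled genes are the 5 with the smallest p-values in each direction, none of which passed the adjusted test.

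A p-value that misses the threshold does not show that the sides are equal, so the width of the intervals was examined. The median 95% interval reached 0.19 to either side of the log2 fold change in the 17 samples and 0.24 in the 14 samples. For 15686 of the 16401 genes (95.6%), the interval lay within a 2-fold difference in either direction, that is within 1 on the log2 scale, and for 84.7% it lay within a 1.5-fold difference. In the 14 samples these shares were 94.9% and 80.4%. The intervals hold gene by gene and not for all genes at once. The fold change itself passed 1.5 on the log2 scale for 5 genes in the 17 samples, 1 higher and 4 lower in right, and for 15 genes in the 14 samples, 1 higher and 14 lower. The median over all genes was -0.0018 and -0.0015.

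The whole profiles of right and left samples were compared next. After the mean of each diet was removed, 4.74% of the remaining variance of log2(CPM + 1) lay between the hemispheres in the 17 samples (CPM, counts scaled to a common total). An exact one-sided permutation test over the 450 ways of placing the right label within diets gave p = 0.773, and the smallest p this design allows is 0.00222. In the 14 samples the share was 5.28%, with an exact one-sided p = 0.92 over 50 assignments, of which the smallest possible is 0.02. PF replicate 1 and AD replicate 3 had a root mean square log2 difference of 0.19 and 0.194 from the mean of the left samples of their diets. PF replicate 6 was at 0.259 and ET replicate 2 at 0.334. Single left samples were at 0.198 to 0.359 from the other left samples of their diet, but these means held 3 or 4 samples against 4 or 5 for the right samples, and a mean over more samples gives smaller distances.

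**Figure D2:**
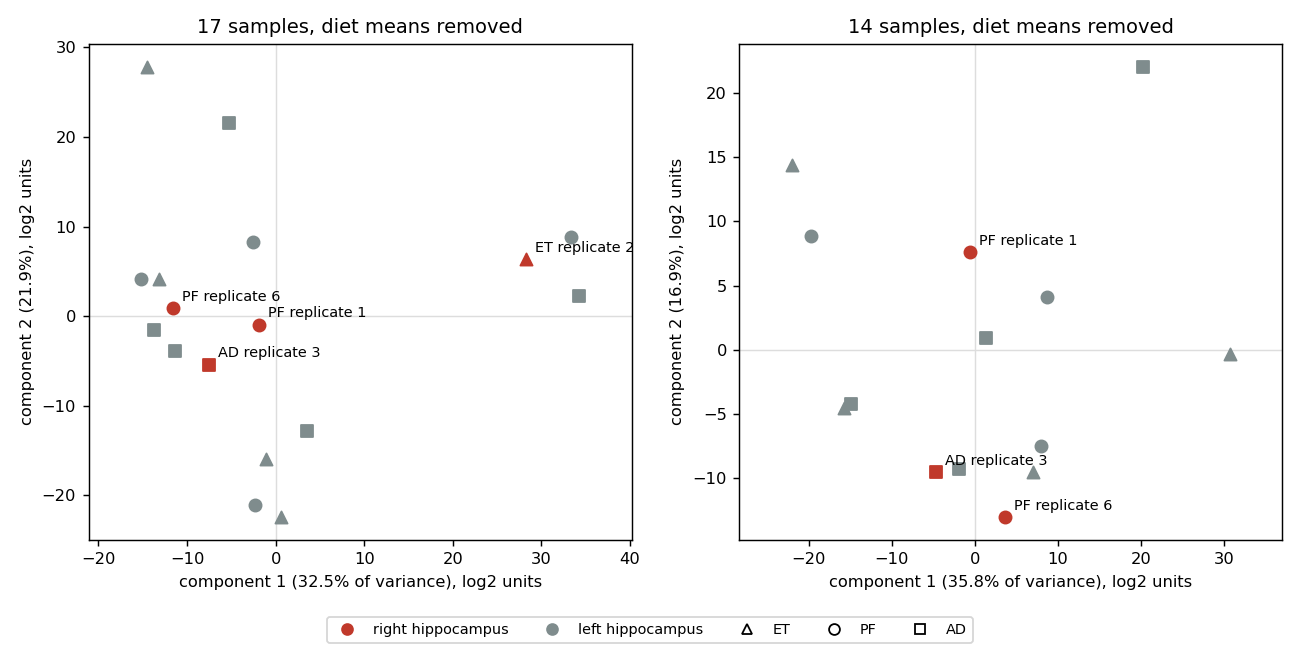
First and second principal components of log2(CPM + 1) with diet means removed, in 17 samples (left panel, 32.5% and 21.9% of variance) and 14 samples (right panel, 35.8% and 16.9%), where each point is a sample, red marks right and grey left, and the symbol gives the diet. In the 17-sample panel the right samples fall within the left range of both components, with ET replicate 2 beside the other 2 choroid plexus-rich samples at the high end of component 1. In the 14-sample panel PF replicate 6 (-13.1) and AD replicate 3 (-9.56) lie beyond the lowest left sample (-9.49) on component 2.

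The gene with the smallest p-value in the 17 samples was Atp5mk, which encodes a small subunit of the mitochondrial ATP synthase. Its normalized count was 100.2 in ET replicate 2, 24.3 in PF replicate 1, 181 in PF replicate 6 and 18.7 in AD replicate 3, against 14.7 to 24.6 with a median of 19.2 in the left samples. Only 2 of the 4 right samples, ET replicate 2 and PF replicate 6, stood above the left samples, and the other two lay within their range. Its log2 fold change of 1.95 ± 0.40 (SE) had adjusted p-values of 0.99 in edgeR and 0.0377 in DESeq2. Without PF replicate 6 the log2 fold change was 1.14. Some genes singled out after their values were seen were also highest in these 2 samples. Rps24, a ribosomal protein gene, was at 69.5 in ET replicate 2 and 159 in PF replicate 6, against 18.4 to 39.8 in the left samples. Cox6b1, a subunit of cytochrome c oxidase, was at 70.3 and 163 in these samples, against 25.5 to 36.8. Rps29, Rpl24, Cox5a and Rps7 were at least 1.5-fold higher in PF replicate 6 than in any other sample. Bc1, a short noncoding RNA of neuronal dendrites, reached 5829 there against 1158 to 3597 in the left samples. Of 12845 genes with a mean normalized count of at least 50, PF replicate 6 held the highest value by 1.5-fold for 7 genes and the lowest by the same margin for 34. In ET replicate 2 these numbers were 14 and 1, and in the other two right samples they were 0 and at most 1. Left samples had such genes too, up to 35 highest in AD replicate 6 and 91 lowest in ET replicate 1. The part of this feature of PF replicate 6 in the results below was not tested other than by leaving the sample out.

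The other genes with the smallest p-values differed by smaller amounts, and the values of several did not overlap within a diet. Over all genes tested, every right sample lay above every left sample of its diet for 45 genes (0.274%) and below for 21 (0.128%). Random placement of the right label within diets (450 assignments) gives each of these patterns for a fraction of 0.00222 of genes. The genes named below were picked by p-value in the same values, so their separation is no further support. Tmem106a, which encodes a transmembrane protein, was at 29.9, 27.4, 24.1 and 18.7 in ET replicate 2, PF replicate 1, PF replicate 6 and AD replicate 3, against 8.68 to 20.8 in the left samples. It is 1 of the 45 genes, with a log2 fold change of 0.69 ± 0.14 (SE). Pik3cg, the catalytic subunit of phosphoinositide 3-kinase gamma, which acts in immune cells, was at 96.1, 114, 105 and 88.0 in the same order, against 64.2 to 93.6 with a median of 76.0. It also stood above all left samples of each diet, with a log2 fold change of 0.34 ± 0.083 in the 17 samples and 0.38 ± 0.10 in the 14. Laptm4a, a lysosomal membrane protein, had a log2 fold change of only 0.16 ± 0.039. Its right samples held 5010, 4217, 4331 and 4357 normalized counts against 3721 to 4446 in the left, again above each diet's left samples. Crispld2, a secreted protein, had a log2 fold change of 0.46 ± 0.10, and its PF replicate 6 (145) lay below the highest PF left sample (147). For all 5 of these genes the adjusted p-value from edgeR was 0.99 in the 17 samples.

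Among the genes with a negative fold change, Syt13, a synaptotagmin, and Noc2l, a nucleolar protein, were below all left samples of their diet in each right sample. Syt13 was at 584, 692, 576 and 633 normalized counts in ET replicate 2, PF replicate 1, PF replicate 6 and AD replicate 3, against 682 to 876 with a median of 729 in the left samples. The PF replicate 1 value was less than 2 counts under the lowest PF left sample (693), so the separation was narrow. The log2 fold change was -0.27 ± 0.069 (SE). Noc2l was at 550.5, 596, 496 and 548 against 552 to 692 with a median of 606, with a log2 fold change of -0.20 ± 0.055. Actn1, an actin-crosslinking protein, differed by -0.13 ± 0.035 and Cox7a2, a subunit of cytochrome c oxidase, by -0.49 ± 0.13 on the log2 scale. LOC108349032, an uncharacterized locus, differed by -0.70 ± 0.16 and held at most 34.3 normalized counts in any sample. All 5 had an adjusted p-value of 0.99 from edgeR. Cox7a2 was lowest of all samples in PF replicate 6 (28.1), in which Cox5a and Cox6b1 were the highest.

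In the 14 samples the genes with the smallest p-values were Pik3cg, Gadd45b, Egr2, Nfkbiz and Ackr3 in the direction of right, and Kcnj2, Cox7a2, Noc2l, Actn1 and LOC103691053 in the direction of left. Nfkbiz, an inducible regulator of NF-kB, was at 42.9 in PF replicate 1, 55.5 in PF replicate 6 and 52.7 in AD replicate 3, against 30.1 to 41.6 with a median of 33.7 over the 13 left samples. These 3 right samples were above every left sample, whereas the ET right sample (38.8) was inside the left range. Nfkbiz was picked by p-value in these samples, so this separation is no further support. Its share over all genes was not counted in this set. Ackr3, a scavenging receptor for the chemokine CXCL12, was at 286, 300.0 and 231 in PF replicate 1, PF replicate 6 and AD replicate 3, against 182 to 291. It was highest of all samples in ET replicate 2 (393). Kcnj2, an inward rectifier potassium channel, was at 217, 230.0 and 274 in the 3 right samples and 296 in ET replicate 2, against 218 to 340 with a median of 287 in left. Its log2 fold change was -0.28 ± 0.073 (SE) in the 14 samples and -0.15 ± 0.078 in the 17. LOC103691053, at 1.98 to 20.9 normalized counts in all samples, differed by -1.10 ± 0.31 in the 14 samples. Adjusted p-values from edgeR were above 0.99 for all 10 of these genes in the 14 samples.

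Of 12 listed genes of the embryonic left-right axis, 6 had enough counts to be tested at this age. The embryonic signals Nodal, Lefty1 and Lefty2, their cofactor Cfc1, their antagonist Dand5 and the ciliary channel gene Pkd1l1 were left out by the filter, the highest value of any being 5.29 normalized counts (Dand5 in PF replicate 6). Of the 6 tested, 0 passed the adjusted test, and 4 had a log2 fold change below 0, against 50.8% of all genes tested. The median of the 6 was -0.067, against -0.0018 over all genes. Lmo4, a transcriptional cofactor known for a side difference in the fetal human cortex, was at 1796, 1907, 2285 and 1794 in ET replicate 2, PF replicate 1, PF replicate 6 and AD replicate 3, against 1563 to 2897 with a median of 1996 in left. Right and left overlapped fully, and the log2 fold change was -0.051 (95% interval -0.31 to 0.20). The ciliary dynein genes Dnah5 and Dnah11 had wider 95% intervals (-1.04 to 0.36 and -1.48 to 0.68), and both were highest in a choroid plexus-rich left sample, PF animal 11f6.

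Gdf1, a ligand that acts with Nodal, had counts in the PF samples alone. It was listed at 0 in all 11 ET and AD samples and between 143 and 211 in the 6 PF samples. Within PF, the right samples were at 211 and 203 and the left samples at 143 to 191. Both right values were thus above the PF left samples. The log2 fold change was 0.30 (95% interval -0.029 to 0.62, unadjusted p-value of 0.068 from edgeR) in the 17 samples and 0.36 (0.035 to 0.69, unadjusted p-value of 0.035) in the 14, with adjusted p-values above 0.99 in both.

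Ionotropic glutamate receptors carry the fast excitatory current of hippocampal synapses, and metabotropic ones tune it. All 25 listed subunits were tested and 0 passed the adjusted test, and before adjustment p was below 0.05 for 0 in the 17 samples and for 1 of 25, Grm2, in the 14, where 0.718% of all genes were lower at that level. Grin2b, the subunit known for its side difference at CA3 synapses, was at 6850 in ET replicate 2, 7584 in PF replicate 1, 7475 in PF replicate 6 and 7986 in AD replicate 3. The left samples held 4773 to 13260 with a median of 8185. All right samples were below the left median and all lay within the left range. The log2 fold change was -0.21 (95% interval -0.61 to 0.19) in the 17 samples and -0.21 (-0.73 to 0.32) in the 14. Both ends of the left range came from ET, with ET replicate 1 the lowest and ET replicate 3 the highest, as for Grin2a and Gria1. Grin2a, the subunit that gains weight as synapses mature, was at 805, 831, 921 and 1081 in the right samples in the same order, against 268 to 2603 with a median of 1107. Its interval was the second widest of the receptors, -1.23 to 0.36. Grin1, the obligatory NMDA receptor subunit, was measured more tightly. It was at 5362, 5943, 6290 and 6192, against 5889 to 6876 with a median of 6306, a log2 fold change of -0.098 (95% interval -0.20 to 0.0069).

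**Figure D3:**
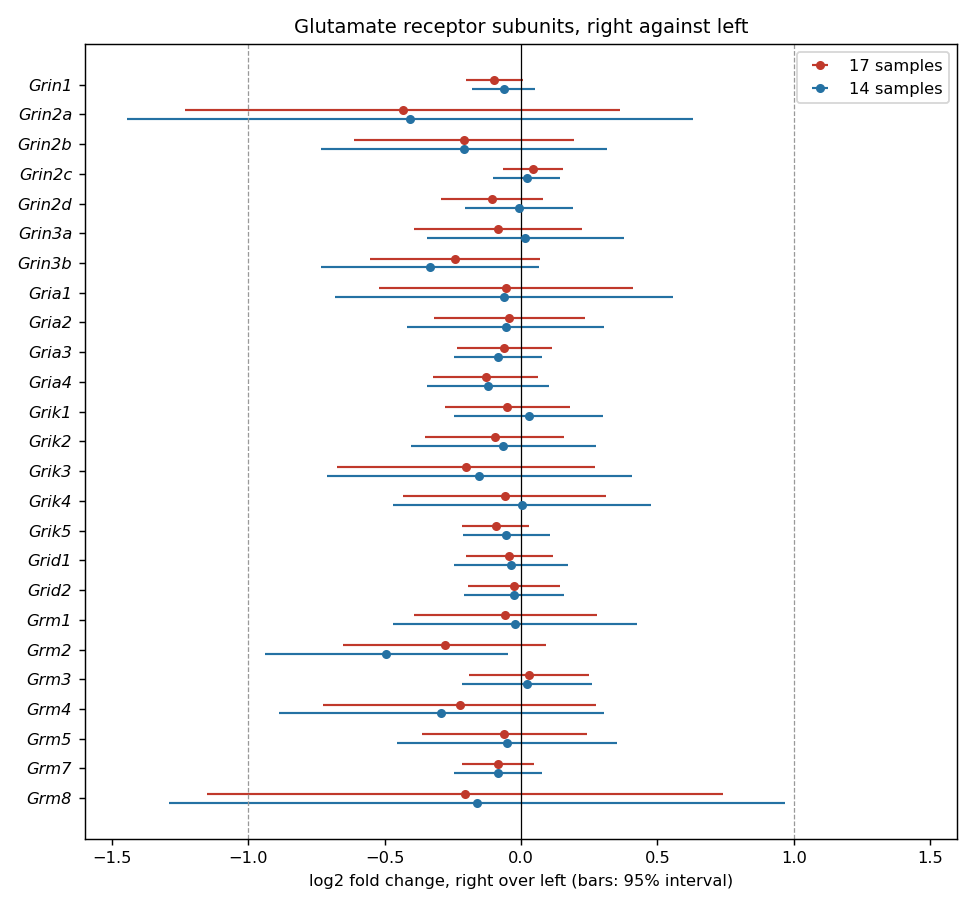
Log2 fold change of right over left for the 25 glutamate receptor genes, in 17 samples (red) and 14 samples (blue), where bars are 95% intervals and dashed lines mark a 2-fold difference in either direction. The intervals of 23 genes lie within a 2-fold difference in both sets, and Grm2 in the 14 samples is the one whose interval leaves out 0.

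The fold changes of the receptors leaned to one side while staying small. Of the 25, 23 were below 0 in the 17 samples and 20 in the 14, against 50.8% and 50.6% of all genes tested, and the medians were -0.086 and -0.063. The receptor genes share the same libraries and vary together in them, so this count is a description. Intervals lay within a 2-fold difference for 23 of 25 in each set, and within 1.5-fold for 19 and 17. Grm2, a presynaptic metabotropic receptor of dentate granule cells, showed 2 low right samples. It was at 294 in PF replicate 1 and 337 in AD replicate 3, below the lowest left sample (454), but at 697 in PF replicate 6 and 649 in ET replicate 2, near the highest left one (733). Its log2 fold change was -0.50 (95% interval -0.94 to -0.050) in the 14 samples and -0.28 (-0.65 to 0.092) in the 17.

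The scaffolds and kinases of the postsynaptic density had narrow intervals. All 25 were tested, 0 passed the adjusted test and 0 had an unadjusted p-value below 0.05 in either set. The intervals of 25 of 25 lay within a 2-fold and of 24 within a 1.5-fold difference in the 17 samples, and the fold changes ran from -0.16 to 0.11 on the log2 scale. Camk2a, the kinase of long-term potentiation, was at 64244, 59431, 74542 and 61997 in ET replicate 2, PF replicate 1, PF replicate 6 and AD replicate 3, against 49444 to 78566 in left. Dlg4, which encodes the scaffold PSD-95, was at 11066, 11867, 13430 and 12308, against 10847 to 13996. For both genes all right values lay within the left range.

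Of 14 GABA receptor genes, which mediate inhibition, 0 passed the adjusted test and 1 had an unadjusted p-value below 0.05 in the 17 samples, Gabrg3, where 1.88% of all genes were lower at that level. The subunit was at 29.9, 28.6, 22.1 and 31.3 normalized counts in ET replicate 2, PF replicate 1, PF replicate 6 and AD replicate 3, against 31.8 to 76.1 with a median of 38.4 in left. All 4 right values lay below the lowest left value. The log2 fold change was -0.63 ± 0.23 (SE) in the 17 samples, where edgeR gave an adjusted p-value of 0.99, and -0.44 ± 0.21 in the 14. There its unadjusted p-value in edgeR was 0.054, so that 0 of the 14 genes were below 0.05 in that set. The remaining subunits had log2 fold changes between -0.22 and 0.073 in the 17 samples.

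MHC class I molecules present peptides on the cell surface and take part in synapse refinement. Of 28 listed genes of this pathway, 27 were in the count table and 20 were tested in the 17 samples, where 0 passed the adjusted test and 0 had an unadjusted p-value below 0.05. B2m, the shared light chain, was at 4537, 3880, 3646 and 3301 in ET replicate 2, PF replicate 1, PF replicate 6 and AD replicate 3, against 3111 to 3846 with a median of 3637. The higher values of ET replicate 2 and PF replicate 1 were not met in the other two right samples, and the log2 fold change was 0.10 (95% interval -0.026 to 0.23). Tap1, a peptide transporter subunit, was at 78.8, 51.3, 42.0 and 37.3, against 35.5 to 66.8. Its highest left value was in PF animal 11f6, so that high Tap1 fell in choroid plexus-rich samples of either side. RT1-N2 split the samples without regard to side, at or below 1.16 in 6 samples and at 62.9 to 193 in 11. The right samples were in both classes, with 0.808 in ET replicate 2 and 155, 80.0 and 85.7 in the others. Many RT1 genes are similar in sequence, which can make their counts uncertain, and this was not tested here.

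Activity-dependent genes are switched on within minutes of neuronal firing. Several of them had their highest values in 2 of the right samples, PF replicate 6 and AD replicate 3. The summed list was 11793 and 11493 in these, close to 11333 in the highest left sample, AD replicate 1. It was 8750 in PF replicate 1 and 7674 in ET replicate 2, below the left median of 9184. Of 22 genes, 0 passed the adjusted test. At an unadjusted p-value below 0.05, 2 (Btg2 and Gadd45b) were higher in the 17 samples and 5 (Egr2, Arc, Nr4a1, Btg2 and Gadd45b) in the 14, with 0 lower, against 3.02% and 1.06% of all genes higher. The median log2 fold change was 0.079 in the 17 samples and 0.20 in the 14, against medians over all genes of -0.0018 and -0.0015.

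Egr2, a zinc finger transcription factor, was at 126 in PF replicate 6 and 61.3 in AD replicate 3, but at 44.2 in PF replicate 1 and 14.5 in ET replicate 2, against 12.9 to 66.0 with a median of 27.1 in left. Only PF replicate 6 was above all left samples, and ET replicate 2 was below every left ET sample. It had a log2 fold change of 1.28 ± 0.36 (SE) in the 14 samples and 0.82 ± 0.40 in the 17, and 0.82 in the 14 without PF replicate 6. Arc, which encodes a dendritic capsid-like protein of synaptic plasticity, was at 2055 in PF replicate 6 and 1984 in AD replicate 3, above the left maximum of 1461. It was at 828 in PF replicate 1 and 777 in ET replicate 2, below the left median of 909. The nuclear receptor gene Nr4a1 followed the same order, at 903 and 627 in PF replicate 6 and AD replicate 3, 384 in PF replicate 1 and 333 in ET replicate 2, against 324 to 532. Gadd45b, a stress-inducible regulator of DNA demethylation, was at 122, 93.0, 102 and 82.4 in PF replicate 6, AD replicate 3, PF replicate 1 and ET replicate 2, against 67.9 to 112. Not every gene of the list went this way. Npas4, a neuron-specific activity gene, was at 50.2 in PF replicate 6 and 153 in AD replicate 3, inside the left range of 31.4 to 243.

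**Figure D4:**
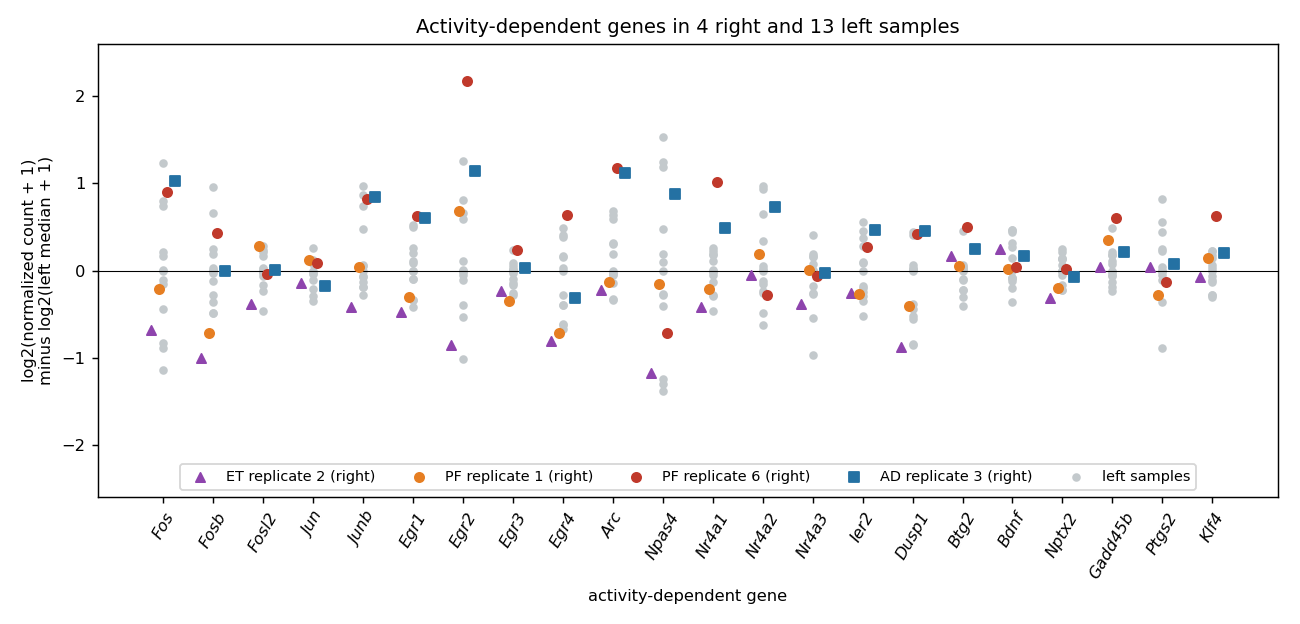
Each of 22 activity-dependent genes in 4 right samples (coloured symbols) and 13 left samples (grey), as log2(normalized count + 1) minus the same value for the left median. PF replicate 6 and AD replicate 3 stand high for Egr2, Arc, Nr4a1 and Egr1, while ET replicate 2 lies below 0 for most genes.

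Of 10 glucocorticoid response genes, 0 passed the adjusted test, 0 had an unadjusted p-value below 0.05 in the 17 samples and 1, Per1, in the 14 (1.06% of all genes were higher at that level). Per1, a clock gene that glucocorticoids also induce, was at 510.5, 675, 886 and 631 in ET replicate 2, PF replicate 1, PF replicate 6 and AD replicate 3, against 478 to 716. Only PF replicate 6 lay outside the left range. The glucocorticoid receptor gene Nr3c1 differed by 0.010 (95% interval -0.18 to 0.20) on the log2 scale and Fkbp5, a receptor co-chaperone, by 0.035 (-0.18 to 0.25). Of 10 genes of adolescent neurogenesis, 0 passed either test in either set. Dcx, which marks immature neurons, was at 493, 599, 535 and 517, against 328 to 661. Right and left overlapped fully.

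The markers of the hippocampal fields were present in every right sample. The summed normalized count of the dentate granule cell list was 3476 to 4433 in the right samples and 2969 to 4574 in the left, that of the CA1 list 12321 to 15746 against 11071 to 15977, that of the CA2 list 3855 to 4422 against 3577 to 5171, and that of the CA3 list 9127 to 9893 against 8449 to 11498. All 4 right ranges lay inside the left ones. Of the 25 genes of these lists that were tested, 0 passed the adjusted test or had an unadjusted p-value below 0.05 in either set. The interneuron list summed to 7982 in ET replicate 2, below the left minimum of 8302, and to 8525 to 9227 in the other right samples. Lists of the long axis were summed as well. The ventral list, of genes enriched at the temporal pole, summed to 3838 in ET replicate 2 and 3256 in PF replicate 1, but to 1006 in PF replicate 6 and 1765 in AD replicate 3, against 1074 to 5232 with a median of 1557 in left. PF replicate 6 was the lowest of all samples. The 3 highest sums were those of the 3 choroid plexus-rich samples. In these, Htr2c, a serotonin receptor gene that choroid plexus also expresses, was at 2699 in ET replicate 2, 3988 in PF animal 11f6 and 3619.6 in AD replicate 4, against a left median of 771. Of the 8 genes of the ventral list, 0 had an unadjusted p-value below 0.05. The part of the choroid plexus and of the position of the dissected tissue in these levels was not tested.

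Glial lists differed little. The astrocyte, oligodendrocyte and oligodendrocyte precursor lists had medians of 0.087, 0.071 and 0.054 on the log2 scale in the 17 samples, with 0 of 25 genes at an unadjusted p-value below 0.05. The 14 samples gave 1 of the 25 below it, against 1.06% of all genes higher. This was Cspg4, a proteoglycan of oligodendrocyte precursors, with a log2 fold change of 0.21 (95% interval 0.048 to 0.37) there and 0.11 (-0.038 to 0.25) in the 17. Of 10 microglia genes 1, P2ry12, a purinergic receptor of resting microglia, had one in both sets, against 3.02% and 1.06% of all genes. P2ry12 was at 493, 448, 430.0 and 484 in ET replicate 2, PF replicate 1, PF replicate 6 and AD replicate 3, against 261 to 517. The summed microglia list was 5011 in PF replicate 1 and 4573 in ET replicate 2, above the left maximum of 4420, and 4354 and 3912 in the other two. Myelin was low in PF replicate 1, where the oligodendrocyte list summed to 213944, below the left minimum of 240221, and the other right samples (292454 to 363234) were inside the left range of up to 380034.

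The lists of vessels and meninges held, in the 17 samples, more genes at an unadjusted p-value below 0.05 than any other list. Of 11 genes of endothelium and pericytes, 11 had a log2 fold change above 0 in both sets. Of all genes tested, 50.8% and 50.6% were below 0. The genes of a list share the same libraries and may vary together in them, so this count is a description. In the 17 samples 4 (Cdh5, Slco1a4, Pdgfrb and Kcnj8) had an unadjusted p-value below 0.05, against 3.02% of all genes, and in the 14 samples 1 (Kcnj8). The median was 0.15 and 0.13. Cdh5, the cadherin of endothelial junctions, was at 401, 325, 339 and 371 in ET replicate 2, PF replicate 1, PF replicate 6 and AD replicate 3, against 227 to 391 with a median of 312. It is 1 of the 45 genes above all left samples of each diet, with a log2 fold change of 0.23 ± 0.098 (SE). Kcnj8, a potassium channel of pericytes, was at 89.7, 84.0, 100.1 and 89.0, against 55.8 to 89.9, a log2 fold change of 0.29 ± 0.11. All 11 intervals lay within a 1.5-fold difference in the 17 samples, and the summed list was 6773 to 7100 in right against 5377 to 7119 in left.

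For the meningeal fibroblast list, 9 of 9 genes had a log2 fold change above 0 in both sets, with medians of 0.52 in the 17 samples and 0.32 in the 14. Here too 50.8% and 50.6% of all genes were below 0, the listed genes may vary together, and the count is a description. An unadjusted p-value below 0.05 was found for 6 (Lum, Ogn, Col1a1, Col1a2, Col3a1 and Slc6a13) in the 17 samples and for 2 (Lum and Slc6a13) in the 14, against 3.02% and 1.06% of all genes, and the adjusted test was passed by 0. The summed list was 16181 in ET replicate 2, above the left maximum of 10674, and 6179, 3887 and 7306 in PF replicate 1, PF replicate 6 and AD replicate 3, within the left range of 3428 to 10674. Col3a1, a collagen of connective tissue, was at 1006 in ET replicate 2 and 953 in AD replicate 3, above the left maximum of 591, but at 558 and 403 in PF replicate 1 and PF replicate 6. The summed level thus ran from 3887 to 16181 among the right samples, and its part in the fold changes of other genes was not tested.

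**Figure D5:**
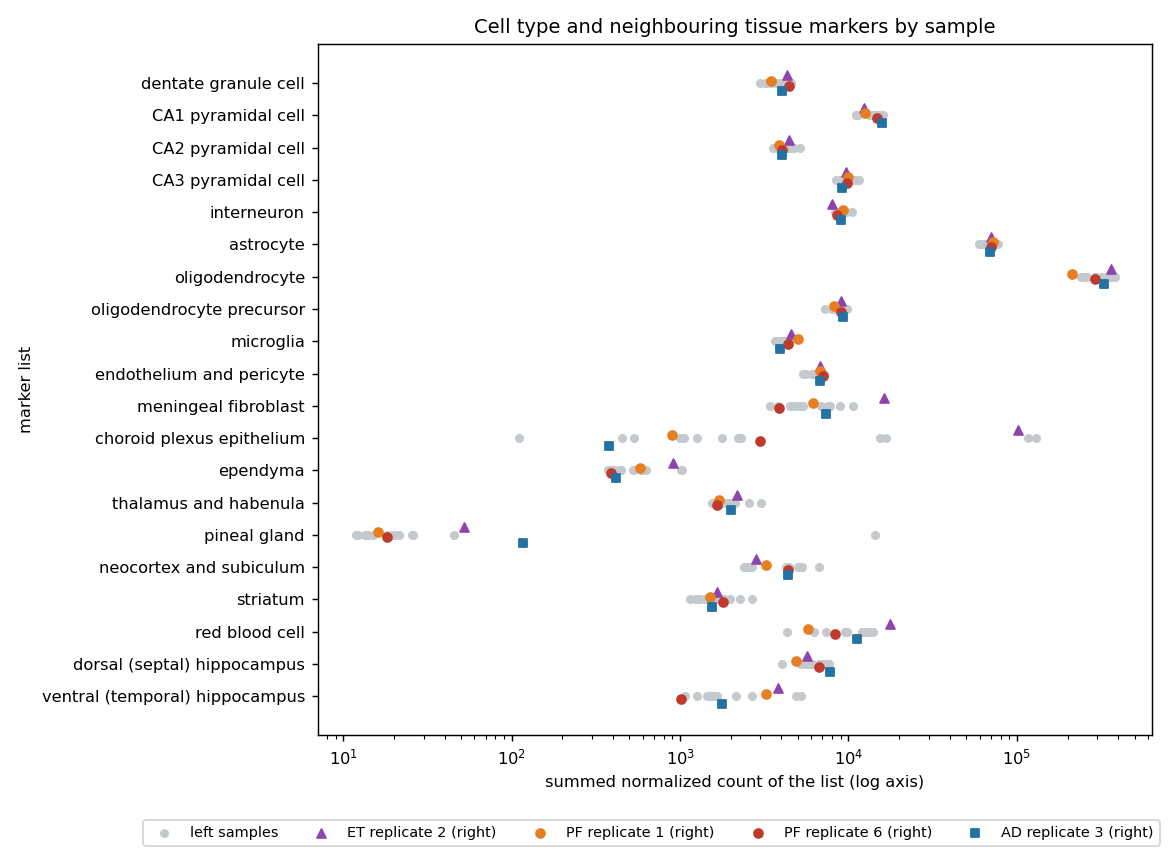
Summed normalized count of each of 20 marker lists (horizontal log axis) in 4 right samples (coloured symbols) and 13 left samples (grey). The right samples spread like the left ones for the hippocampal fields, and ET replicate 2 stands at 101228 for choroid plexus and 16181 for meningeal fibroblasts.

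Tissue from outside the hippocampus was uneven on both sides. The choroid plexus list summed to 101228 in ET replicate 2 and to 893, 3000 and 379 in PF replicate 1, PF replicate 6 and AD replicate 3, against 110.4 to 129382 with a median of 1780 in left. Its median log2 fold change was 0.45 in the 17 samples and -1.26 in the 14, so the direction turned when the 3 rich samples were left out, and 0 of 12 genes had an unadjusted p-value below 0.05 in either set. The pineal list summed to 14330 in the left sample AD replicate 6 and to 116 in AD replicate 3, the highest right sample. Tph1, the pineal enzyme of serotonin synthesis, had the largest log2 fold change in the table, -3.52 in the 17 samples, with a 95% interval of -11.9 to 4.85 and 12964 normalized counts in AD replicate 6 alone. The thalamus and habenula list was 1646 to 2177 in right and 1545 to 3027 in left, the neocortex and subiculum list 2830 to 4384 against 2409 to 6663, the striatum list 1515 to 1792 against 1151 to 2663, and the ependyma list 388 to 913 against 373 to 1023. These right ranges lay inside the left ones. Of 6 neocortex and subiculum genes 1, Fn1, which encodes fibronectin, had an unadjusted p-value below 0.05 in the 17 samples (3.02% of all genes were higher at that level) and 0 in the 14. The red blood cell list reached 17667 in ET replicate 2, above the left maximum of 14014, and was 5766 to 11307 in the other right samples. The dorsal list, of genes enriched at the septal pole, was 4873 to 7719 in right and 4037 to 7626 in left.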

How the data were processed

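RNA of 17 hippocampi was sequenced by the authors as stranded mRNA libraries, mapped to the rat genome with Bowtie2 2.4.2 and counted on the exons of 34322 genes with featureCounts 2.0.1 at a minimum mapping quality of 10, with reads allowed to count for several features. The values the authors deposited are estimated counts in form, namely fragments per gene averaged over 3 technical replicates, not normalized. All of them are multiples of 1/3 (tolerance 0.001).

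Samples were grouped by the hemisphere and diet of the sample labels. The averaged counts were rounded, filtered with filterByExpr on hemisphere, scaled by TMM and fitted with diet and hemisphere in edgeR 4.0.16 (R 4.3.3, quasi-likelihood test), with Benjamini-Hochberg adjustment over all genes tested. The SE is the absolute log2 fold change divided by the square root of F, and 95% intervals use the t quantile at the residual plus prior degrees of freedom. Normalized counts are TMM-scaled counts of the 17 samples. Intervals and p-values cover the spread between rats of these litters. No 2 samples of a diet agreed within sampling noise: the chi-square per gene was at least 3.05 in 40 pairs. The fits were checked on simulated counts.

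Named genes are those past a threshold or, where there were none, the 5 of lowest p-value per direction and fit, with members of 8 pathway lists and 20 marker lists and the Y-linked genes. Genes that set single samples apart (such as Rps24, Cox6b1 and Bc1) and RT1-N2 were singled out after their values were seen. The comparison and the lists were chosen with earlier results of these data known. Of the listed genes Pirb and Nov were not measured under these symbols. From the list of the left-right axis 2 genes are not reported here and stay out of its counts and median.

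Alternatives were DESeq2 1.42.0, median-of-ratios scaling, sums of the technical replicates, no filter on low counts, sex as covariate and no diet term. Others were the replicate number as block, male-labelled samples only, PF only, a fold change limit of 1.5 and leaving out each sample. The share of variance used log2(CPM + 1) and exact permutation within diets. Python 3.11.15, numpy 2.4.6, pandas 2.3.3, scipy 1.17.1 and matplotlib 3.10.9 were used. In the right samples 3 counts correspond to 2.13e-05% to 2.76e-05% of fragments, and without molecular identifiers this covers counting error only.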

Additional observations from a re-analysis of the deposited data

Results flagged for a closer look

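Among 148 groups of 4 or 5 samples examined for single samples far from the others, 14 were marked, where chance marks about 1 in 20. Of the right samples, ET replicate 2 stood apart for the choroid plexus list (a summed normalized count of 101228) and PF replicate 6 for the endothelium and pericyte list (7100). In the left samples the choroid plexus list was far higher in ET replicate 1 (15453), PF animal 11f6 (116279) and AD replicate 4 (129382) than in the others of their diet. PF animal 11f6 also stood apart for the ependyma list (1023). PF replicate 3 was the highest PF left sample for the CA3 pyramidal cell list (11031) and the lowest for the interneuron list (8695). In AD left, replicate 4 was the lowest for the thalamus and habenula list (1545) and the highest for the ventral hippocampus list (4861), and replicate 6 was the highest for the pineal list (14330). Among the named genes, Egr2 was far higher in PF animal 11f5 (43.5) than in the other PF left samples, and Nfkbiz was far lower in PF replicate 2 (30.1) and far higher in AD replicate 5 (39.2) than in the left samples of their diet.

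For 2 of 44 genes and lists examined, the right samples lay outside the left samples of their diet in opposite directions, and these differences between diets were not tested. The log2 ratio of right to left means of Egr2 was -0.92 in ET and 1.39 in PF. That of LOC103691053 was 0.54 in ET, -0.71 in PF and -1.12 in AD.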

How the results depend on the processing

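The count of genes past either threshold stayed at 0 under most alternatives, in both directions and both sample sets. The exceptions were at an adjusted p-value below 0.05, where DESeq2 called 2 genes higher in right in the 17 samples (Atp5mk and Laptm4a). At the same limit, the edgeR fit with the replicate number as a replicate block called 4 in the 14 samples. That fit also left out PF animal 11f5, whose replicate number is not known. These 4 were Uty, Kdm5d, Eif2s3y and Ddx3, all Y-linked. In that fit the male right samples PF replicate 6 and AD replicate 3 shared their numbers only with left samples labelled female. Side and sex thus cannot be told apart in these blocks, and the cause was not tested. In the 17 samples, again without PF animal 11f5 and also without PF animal 11f6, the replicate block called 0 genes. The deviations of 7 pairs of same-numbered right and left samples correlated at -0.037 on average (-0.44 to 0.21), against 0.032 over 28 other pairs (-0.62 to 0.73). These values spread too widely to show whether samples of the same number were handled together. Without the right sample AD replicate 3, 1 gene was lower in right in the 14 samples at both thresholds, LOC102547235 (log2 fold change -3.59, adjusted p-value 0.00184 from edgeR), so that leaving out single samples gave 0 to 1. That fit rests on the 2 right PF samples, both at or under 3.42 normalized counts, and the left PF animal 11f6, which the 14 samples leave out, was at 4.29, against 30.7 to 65.4 in the 14 other samples. The share of genes with an interval within 1.5-fold was 54.7% in the 17 and 52.4% in the 14 samples with no filter on low counts, which adds genes of few counts. It was 66.5% to 85.3% over both sets when single samples were left out. Counts before adjustment (p below 0.05) moved more. In the 17 samples they were lowest with sex as covariate and without AD replicates 1 and 2 (192 higher and 150 lower). With sex as covariate in all 17 samples they were 333 and 204. They reached 637 higher with no filter and 572 lower in the male-labelled samples, which include AD replicate 1 with its mismatched Y-linked genes. In the 14 samples they ran from 79 higher and 52 lower, with sex as covariate and without AD replicates 1 and 2, to 460 and 521 in PF alone. Leaving out the right sample ET replicate 2 from the 17 gave 217 and 155, and leaving out AD replicate 3 from the 14 gave 435 and 303. For the 5 genes of lowest p-value per direction and sample set, 508 of 508 alternative fold changes kept their sign, and 0 passed a threshold in edgeR. These genes were picked by p-value in the same samples, and most alternatives reuse nearly all of those samples. The kept signs therefore say little about stability. The share of variance between hemispheres was 4.74% to 6.78% and 5.0% to 7.45% in the fits without single samples, 2.39% and 3.69% over the 500 most variable genes, 2.45% and 3.49% on CPM without log, and 4.77% and 5.35% on TMM-scaled CPM. The lowest of these exact p-values was 0.47. With 4 or 3 right samples the intervals stayed within 1.5-fold for 84.7% and 80.4% of genes, and for the remaining genes larger differences lay inside the interval. The 14-sample comparison rests on PF and AD right samples alone.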
